A study of Mus musculus with 6 samples.

Results

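The 2 Ctla2 genes and 6 cysteine cathepsin genes of mouse LSK cells are described here. They are Ctla2a, Ctla2b, Ctsl, Ctsb, Ctsc, Ctsh, Ctss and Ctsz, 8 of the 22180 genes measured. The genes were picked by name with earlier results of the same comparison known, and each had 1 probe set annotated to its symbol alone, so no choice between probe sets was needed. LSK cells are bone marrow cells without lineage markers that carry Sca1 and cKit, a fraction rich in blood stem cells and early multipotent progenitors. They were sorted from mice transplanted with Tifab-/- (KO) marrow, 3 arrays, or Tifab+/+ (WT) marrow, 3 arrays, with 1 Affymetrix MoGene 2.0 ST array per sample and 3 mice per group per the labels. Both groups share the transplantation: the labels' protocols name lethally irradiated Boy/J recipients given 7 Gy and then 4.75 Gy after 3 hours. The labels give 3 months, which can be read as the animals' age or as the time since grafting, and do not say whether donor origin was part of the sort, so residual host cells cannot be told apart from donor cells.

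Cysteine cathepsins are papain-like proteases that are made as inactive proenzymes. An N-terminal propeptide blocks the active site until it is cut off in the acidic endosome or lysosome, where the mature enzymes degrade proteins, process the class II invariant chain and activate other proteases. The mouse Ctla2 proteins resemble a cathepsin propeptide without the enzyme attached and inhibit cathepsin L-like proteases; they were first described in activated T cells and mast cells.

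Ctla2a and Ctla2b are a closely related pair, and the letters upstream of their starts show how closely the 2 genes match. The stretches below come from RefSeq promoter windows of build GRCm38.p6, minus strand, and are the parts of the 250 bases before each start that align with each other. Ctla2a has 2 such windows. The one that aligned better with Ctla2b was used, so the match is that of a selected start. The alignment of the other Ctla2a window is not given. Capitals mark bases that differ between the genes or have no partner in the other one.
Ctla2a, chr13:60936626-60936861: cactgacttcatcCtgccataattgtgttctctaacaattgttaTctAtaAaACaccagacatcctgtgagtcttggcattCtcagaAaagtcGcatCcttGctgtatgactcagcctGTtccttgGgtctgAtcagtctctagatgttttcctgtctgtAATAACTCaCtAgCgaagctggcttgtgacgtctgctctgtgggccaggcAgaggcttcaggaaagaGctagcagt
Ctla2b, chr13:60897470-60897697: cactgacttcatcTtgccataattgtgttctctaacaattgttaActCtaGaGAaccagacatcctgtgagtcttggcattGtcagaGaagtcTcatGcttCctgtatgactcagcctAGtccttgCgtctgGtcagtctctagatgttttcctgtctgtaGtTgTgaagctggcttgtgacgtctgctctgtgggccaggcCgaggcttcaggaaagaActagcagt
Of 236 aligned positions, 208 were identical (88.1%), 20 were mismatches and 8 lay in gaps. The transcripts of such a pair can share array probes. The probe sequences were not used here, and whether either probe set also reads its partner's RNA was not tested, so the values of both genes (probe sets 17293362 for Ctla2a and 17293348 for Ctla2b) are uncertain to that extent.

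Of the 8 genes, Ctla2b was the one whose groups did not overlap, and it was lower in the KO-labelled arrays. It measured 9.02, 8.83 and 8.78 in the KO-labelled arrays, against 9.66, 9.51 and 9.67 in the WT-labelled arrays, on the log2 probe set scale used for all values here. The highest KO-labelled value lay 0.48 below the lowest WT-labelled one. The mean was 8.88 ± 0.13 in the KO-labelled and 9.61 ± 0.09 in the WT-labelled arrays (SD, n = 3 each), a log2 difference of -0.74 ± 0.11 (SE), or 0.600 of the WT-labelled level. Since the genes were chosen with this comparison known, their differences are a description and carry no test.

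Ctla2a, the pair's other inhibitor gene, did not separate the groups. It measured 10.17, 10.09 and 10.35 in the KO-labelled arrays, against 10.24, 10.02 and 10.12 in the WT-labelled arrays. The mean was 10.20 ± 0.13 in the KO-labelled and 10.13 ± 0.11 in the WT-labelled arrays (SD, n = 3 each), a log2 difference of 0.07 ± 0.10 (SE), which turned to -0.01 after quantile normalization and after cyclic loess. The changes of the pair were therefore unequal within the same arrays. Ctla2b minus Ctla2a was -1.15, -1.26 and -1.56 in the KO-labelled arrays and -0.58, -0.52 and -0.44 in the WT-labelled arrays. All 3 KO-labelled values lay below all 3 WT-labelled ones. The difference of the means was -0.81, and -0.90 to -0.69 with 1 array left out.

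Ctsl encodes cathepsin L, a broad lysosomal endopeptidase of the class that Ctla2 proteins inhibit. It measured 7.39, 7.37 and 7.12 in the KO-labelled arrays, against 8.21, 7.27 and 7.62 in the WT-labelled arrays. The groups overlapped, because WT replicate 2 lay below 2 of the KO-labelled arrays. The log2 difference was -0.41 ± 0.22 (SE), and the spread was wider among WT-labelled arrays, with an SD of 0.15 in the KO-labelled and 0.48 in the WT-labelled arrays (n = 3 each). WT replicate 1 set much of this difference: without it the value was -0.16, and without WT replicate 2 it was -0.63.

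Ctsb and Ctsz encode cathepsins B and Z, which trim proteins from the carboxyl end, cathepsin B also cutting inside chains. Ctsb measured 8.08, 8.36 and 8.40 in the KO-labelled arrays, against 8.06, 8.52 and 8.75 in the WT-labelled arrays. Its KO-labelled values lay inside the WT-labelled range, and the log2 difference was -0.16 ± 0.18 (SE), or -0.01 without WT replicate 3. Ctsz measured 6.97, 7.53 and 7.22 in the KO-labelled arrays, against 7.33, 7.48 and 7.50 in the WT-labelled arrays. Here 2 KO-labelled arrays were below the WT-labelled range and 1 was above it. The log2 difference of Ctsz was -0.20 ± 0.17 (SE), or -0.06 without KO replicate 1.

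Ctsc encodes cathepsin C, a dipeptidyl peptidase that activates the serine proteases of granules. It measured 6.52, 6.86 and 6.49 in the KO-labelled arrays, against 6.69, 6.30 and 6.65 in the WT-labelled arrays. The groups overlapped, with a log2 difference of 0.08 ± 0.17 (SE). Ctsh, the gene of the aminopeptidase cathepsin H, measured 5.02, 4.90 and 4.59 in the KO-labelled arrays, against 4.63, 4.91 and 4.72 in the WT-labelled arrays. The KO-labelled values of Ctsh reached both above and below the WT-labelled range, and the log2 difference was 0.08 ± 0.17 (SE). Leaving out 1 array turned the sign of either gene: Ctsc reached -0.05 without WT replicate 2 and -0.04 without KO replicate 2, and Ctsh -0.01 without KO replicate 1.

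Ctss encodes cathepsin S, which cuts the class II invariant chain in antigen-presenting cells, and it had the widest range of the 8 genes among the WT-labelled arrays. It measured 8.43, 8.87 and 8.03 in the KO-labelled arrays, against 7.56, 8.31 and 9.04 in the WT-labelled arrays. The WT-labelled values spanned 1.48 and held all the KO-labelled ones between them. The log2 difference was 0.14 ± 0.34 (SE), with -0.23 without WT replicate 1 and 0.51 without WT replicate 3. Summed linear levels of markers of other cells differed between the same arrays, in more than one order. In replicates 1, 2 and 3, the 7 B cell markers summed to 361, 516 and 482 in the KO-labelled arrays and 264, 332 and 588 in the WT-labelled arrays. The 13 macrophage markers summed to 229, 312 and 259 in the KO-labelled arrays and 266, 293 and 370 in the WT-labelled arrays. The groups did not overlap for 5 of the 13 (38.5%), beside 16.1% of all genes, and for 0 of the 7 B cell markers. C1qa was higher, with a log2 difference of 0.52. Cd5l, Vcam1, C1qb and Cd163 were lower, at -1.45, -0.74, -0.51 and -0.32. Like Ctss, the B cell and macrophage sums were lowest in WT replicate 1 and highest in WT replicate 3 among the WT-labelled arrays. So were those of endothelial and erythroid markers, and that of the LSK markers themselves. The sums of T and NK cell, neutrophil, mast cell and eosinophil, and stromal markers were instead highest in WT replicate 1. That of dendritic cell markers was highest in WT replicate 2. Among the KO-labelled arrays Ctss and the B cell and macrophage sums were all highest in replicate 2. There Ctss was lowest in replicate 3, and both sums were lowest in replicate 1. Linear sums weigh the brightest markers most, and the macrophage markers did not share 1 order. In WT replicates 1, 2 and 3, Hmox1 measured 5.00, 5.66 and 6.63 and Cd5l 2.95, 3.04 and 5.19. Vcam1 measured 5.59, 5.12 and 4.85 there, and Adgre1, C1qa and Mertk were also lower in replicate 3 than in replicate 1. The other macrophage markers were higher in replicate 3. No marker was at 0, but neither was any probe set, the lowest value on the arrays being 0.833. Of the markers, 3 of the 7 for B cells and 8 of the 13 for macrophages had a mean below the median of all genes. The part of any of these cells in the Ctss values was not tested, and in sorted bulk cells fewer cells of a type and less RNA per cell cannot be told apart.

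**Figure D1:**
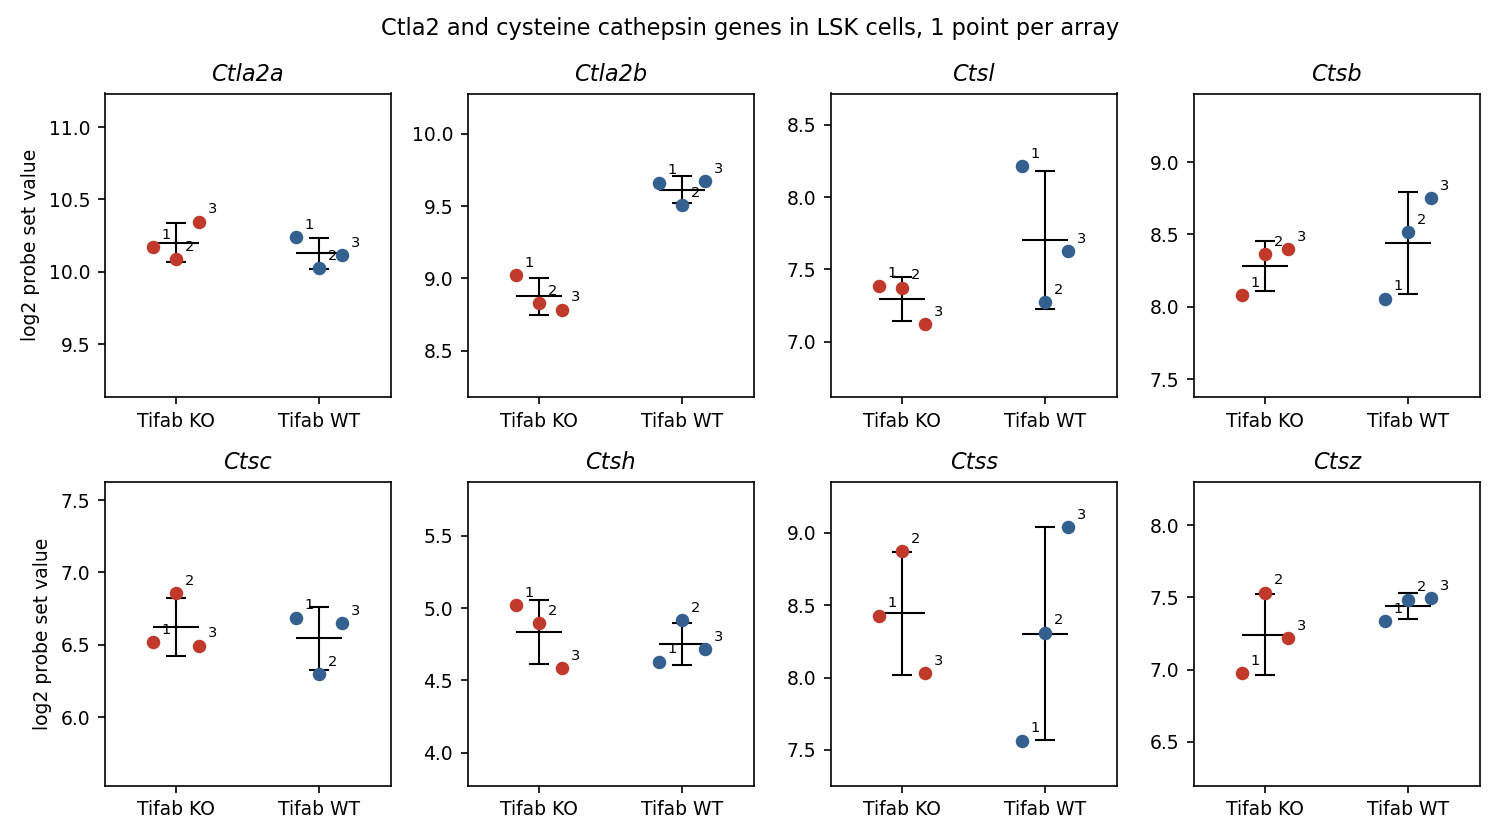
Log2 probe set values of the 8 genes, 1 panel per gene and 1 numbered point per array (the number is the replicate), with KO-labelled arrays on the left and WT-labelled arrays on the right; bars give the mean and SD, and every panel spans the same height. The groups do not overlap for Ctla2b, at most 9.02 in the KO-labelled arrays against at least 9.51 in the WT-labelled ones, and they overlap for the other 7.

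Read together, the 8 genes did not move one way. In the KO-labelled arrays 4 had a higher mean (Ctla2a, Ctsc, Ctsh and Ctss) and 4 a lower mean (Ctla2b, Ctsl, Ctsb and Ctsz), or 3 and 5 after quantile normalization or cyclic loess, where Ctla2a turned. Their median log2 difference was -0.04, beside a median over all 22180 genes of 0.00 after rounding. Groups that did not overlap were found for 1 of the 8 genes (12.5%), against 16.1% of all genes, or 8.37% when only lower genes are counted. Nothing is read from that count, since this comparison was known when the genes were chosen. The limma fit called 0 of 22180 genes (0%) at an adjusted p under 0.05, and 2274 (10.3%) had an unadjusted p under 0.05, or 2224 without the intensity trend. An unadjusted p under 0.05 together with at least 1.5-fold held for 605 genes (2.73%). Of the 8 differences, those of Ctla2b, Ctsl, Ctsb and Ctsz kept their sign in all 13 alternatives tried for each gene, and the largest shift under any of them was smaller than the gene's pooled SD between replicates.

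**Figure D2:**
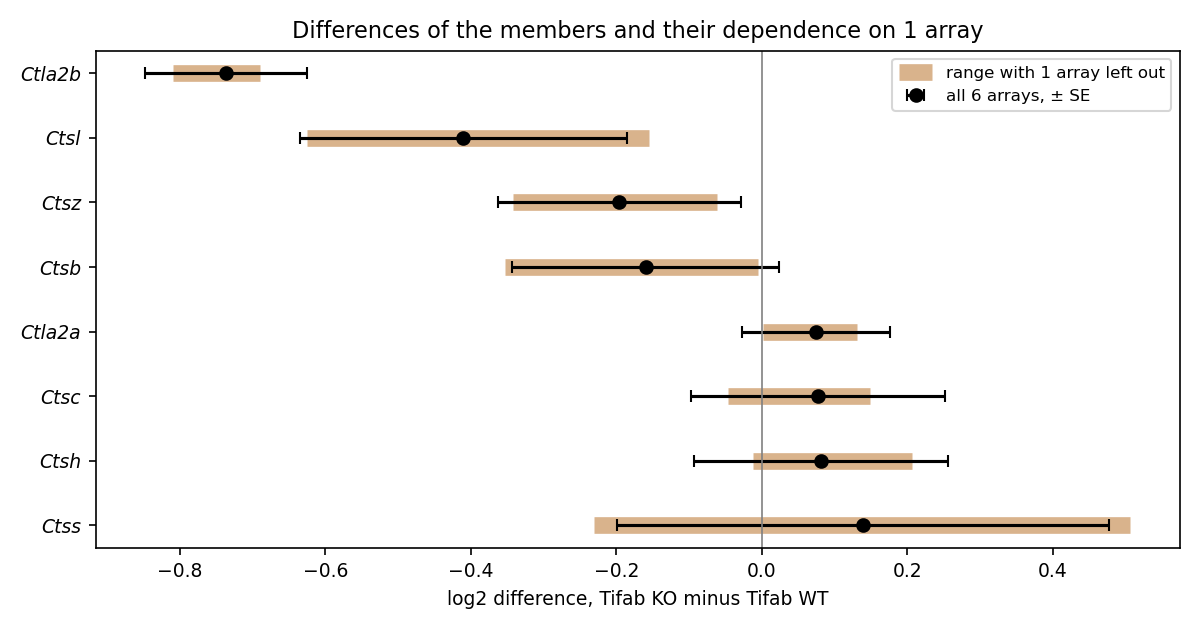
Log2 difference of each gene, KO-labelled minus WT-labelled arrays, with points for all 6 arrays, whiskers for the SE and tan bands for the range when 1 array is left out. The band of Ctla2b runs from -0.81 to -0.69, while that of Ctss crosses 0 from -0.23 to 0.51.

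Ctla2b, Ctla2a and Ctsl lie on chromosome 13, as does Tifab. In the gene order of GRCm38.p6, 47 measured genes lie between Tifab and Ctla2b, 1 between Ctla2b and Ctla2a, and 38 between Ctla2a and Ctsl. The pair sits beside a cluster of cathepsin genes known for expression in the placenta. The nearest measured genes were taken in their order on the chromosome, and the comparison with them was chosen after the values were seen. Of the 21 measured genes around the pair, 10 on either side and Tpbpb between them, 18 had a mean below the median of all genes, and the groups did not overlap for 1 (4.76%), Tpbpb, a placental gene with a log2 difference of -0.25 ± 0.13 (SE) at a mean of 2.20. The 2 measured genes just before Ctla2b were both at low values. They were 4930486L24Rik, named here by its clone symbol, at 0.61 ± 0.22 and the cathepsin-like gene Ctsll3 at -0.38 ± 0.28 (SE). Over the 86 measured genes between Tifab and Ctsl other than the Ctla2 pair, the groups did not overlap for 13 (15.1%), 8 higher and 5 lower, beside 16.1% of all genes, and the median log2 difference was -0.02. The Tifab probe set itself read 5.21, 5.12 and 5.26 in the KO-labelled arrays, against 4.99, 5.37 and 5.53 in the WT-labelled arrays. Macroh2a1, which encodes a histone H2A variant, is the nearest measured gene on the far side of Tifab from the Ctla2 pair. It measured 9.07, 8.90 and 9.22 in the KO-labelled arrays, against 9.88, 10.03 and 9.97 in the WT-labelled arrays, a log2 difference of -0.90 ± 0.11 (SE). The groups did not overlap, and its adjusted p of 0.186 in limma, though above the threshold, was the smallest of all genes together with that of 1 other. The labels do not say whether the Tifab probe set falls inside the deletion, so it checks nothing and each direction rests on the labels.

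**Figure D3:**
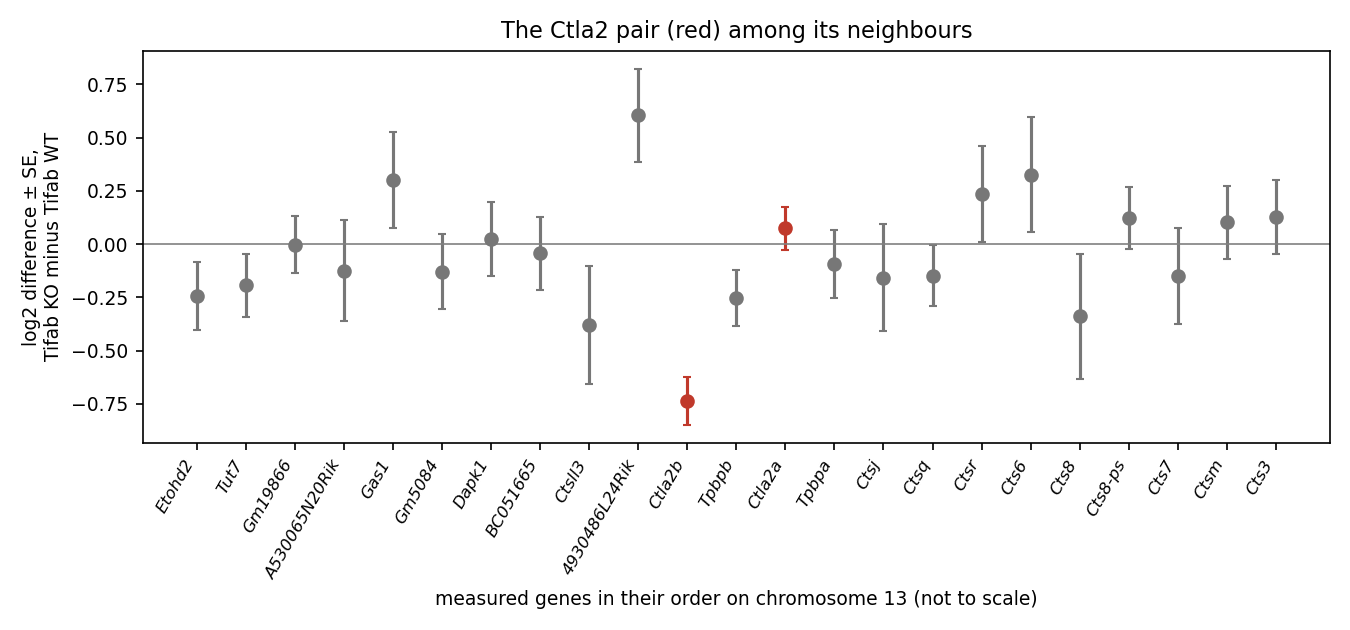
Log2 difference with its SE, KO-labelled minus WT-labelled arrays, for the Ctla2 pair (red) and the 21 measured genes around it in their order on chromosome 13, with equal spacing. Ctla2b stands at -0.74 and Ctla2a at 0.07, with 1 gene between them at -0.25.

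The other cathepsin genes were examined from lists of related genes, none of which held a gene past the adjusted threshold. Among the 4 remaining papain-family cathepsins with roles outside the placenta, 2 were higher and 2 lower, and the groups did not overlap for 0, beside 16.1% of all genes. Ctsw, a cathepsin of cytotoxic lymphocytes, measured 6.25, 6.29 and 5.71 in the KO-labelled arrays, against 6.19, 7.32 and 6.72 in the WT-labelled arrays. Its log2 difference of -0.66 ± 0.28 (SE, limma adjusted p = 0.475) was -0.37 without WT replicate 2. Ctsf, Ctso and the osteoclast protease gene Ctsk had 0.28, -0.12 and 0.04, with adjusted p of 0.661 or more in limma. The 9 T and NK cell markers summed to between 981 and 994 in the KO-labelled arrays. In the WT-labelled arrays the sum lay between 901 and 1220. It mostly followed 1 bright gene, Nkg7, at 9.73, 9.75 and 9.73 in the KO-labelled and 10.06, 9.62 and 9.64 in the WT-labelled arrays. Of the 9 markers, 6 had a mean below the median of all genes. Among the WT-labelled arrays Cd3e, Nkg7 and Ncr1 were highest in replicate 1, and Cd3g and Il2rb in replicate 3. Cd3d, Cd8a, Cd8b1 and Klrb1c were highest in replicate 2, as was Ctsw. The part of these cells in the Ctsw value was not tested. The 9 placental cathepsins all had means below the median of all genes and differences between -0.38 and 0.33, with a median of -0.15 that turned to 0.03 after quantile normalization or cyclic loess, and 0 past an unadjusted p under 0.05 in limma, beside 10.3% of all genes.

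The cathepsins of other protease classes had a higher mean in the KO-labelled arrays in 4 of 4 cases, as deposited and after each of quantile normalization, median centring and cyclic loess. Ctsd, the aspartic protease cathepsin D, measured 9.49, 9.49 and 9.46 in the KO-labelled arrays, against 9.40, 9.24 and 9.39 in the WT-labelled arrays. These groups did not overlap, although the log2 difference was 0.14 ± 0.10 (SE, adjusted p = 0.644 in limma). Ctsg, the granule serine protease cathepsin G, measured 10.59, 10.27 and 10.28 in the KO-labelled arrays and 9.93, 9.997 and 9.97 in the WT-labelled arrays. It did not overlap either and had the lowest p of the cathepsins tested, with a log2 difference of 0.41 ± 0.10 (SE, adjusted p = 0.334 in limma). Ctsa, a serine carboxypeptidase of the lysosome, had 0.16 ± 0.17 (SE). Ctse, a second aspartic cathepsin, had 0.57 ± 0.38 (SE), or 0.06 without WT replicate 1, which stood at 6.28 while the other 5 arrays lay between 7.55 and 8.19.

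Cathepsin C activates several granule proteases, and their genes were set beside Ctsc. Of 7 measured, 6 had a higher and 1 a lower mean in the KO-labelled arrays. Their median log2 difference was 0.16 against 0.00 over all genes, and 0 passed the adjusted threshold. Ctsg is among the 7 and was already counted with the cathepsins of other classes, so the 2 counts are not independent. Gzma, Gzmb and Cma1, 3 of the 7, had means below the median of all genes. Gzma and Gzmb were among the higher genes. Prtn3, the gene of proteinase 3, had 0.24 ± 0.16 (SE, adjusted p = 0.629 in limma). Elane, the neutrophil elastase gene, had 0.51 ± 0.24 (SE), or 0.16 without KO replicate 3. Cma1, a mast cell chymase gene, was at low values, with a log2 difference of -0.30 ± 0.15 (SE). The activating enzyme's own gene differed by 0.08 in the same arrays, as given above. The summed level of 11 neutrophil markers, all above the median of all genes on average, ran from 5970 to 7310 in the KO-labelled arrays and from 6130 to 7130 in the WT-labelled arrays, and its part in these values was not tested.

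The other natural inhibitors of these proteases are the stefins, which act inside cells, and the secreted cystatins. Of 11 stefin genes 6 were higher and 5 lower, or 7 and 4 after quantile normalization, 9 of them with means below the median of all genes. Cstb, the broadly expressed stefin B, measured 8.13, 8.08 and 7.54 in the KO-labelled arrays, against 7.22, 7.54 and 7.67 in the WT-labelled arrays. The groups overlapped and the log2 difference was 0.44 ± 0.19 (SE, adjusted p = 0.482 in limma), or 0.31 without WT replicate 1. Cstdc4 and Stfa2l1 varied most: Cstdc4 measured 1.78, 3.59 and 6.37 in the KO-labelled arrays, against 2.68, 3.06 and 2.86 in the WT-labelled arrays. Without KO replicate 3 its difference was -0.19, and with all arrays 1.04, while Stfa2l1 had -0.59, or 0.26 without KO replicate 1. Stfa1 had -0.42 ± 0.23 (SE). Stefin A genes form a family of near-identical copies, so their probe sets may read each other's transcripts.

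Among 14 secreted cystatins and relatives, 6 were higher and 8 lower as deposited, and 7 and 7 after quantile normalization or cyclic loess. Cst3, which encodes cystatin C, a strong inhibitor of cysteine cathepsins, measured 10.94, 11.04 and 10.90 in the KO-labelled arrays, against 10.91, 10.65 and 10.77 in the WT-labelled arrays. Its log2 difference was 0.18 ± 0.09 (SE, adjusted p = 0.507 in limma), and 0.09 to 0.18 under the other scalings; a second, dimmer probe set of Cst3 gave 0.11. Cst13, Cst9 and Kng1 were at low values, with differences of -0.41, -0.30 and -0.25 and adjusted p of 0.483 or more in limma.

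The lysosome and the class II pathway, where the mature enzymes work, were described in the same way. Of 42 lysosomal genes 24 had higher and 18 lower means, at a median difference of 0.06. The groups did not overlap for 4 (9.52%), beside 16.1% of all genes. All 4 were higher, and 7.75% of all genes did not overlap in that direction. Ctns, the cystine exporter of the lysosome, measured 5.33, 5.14 and 5.12 in the KO-labelled arrays, against 3.80, 4.79 and 4.33 in the WT-labelled arrays. Its log2 difference of 0.89 ± 0.24 (SE, adjusted p = 0.342 in limma) was 0.64 without WT replicate 1. Lamp2, a main protein of the lysosomal membrane, had 0.50 ± 0.16 (SE, adjusted p = 0.363 in limma). Fuca1, a fucosidase, had 0.64 ± 0.26 and Lipa, the acid lipase, -0.49 ± 0.20 (SE); without KO replicate 1 they had 0.34 and -0.36.

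Of 10 class II pathway genes 7 had higher and 3 lower means, at a median difference of 0.12 and 0 past the adjusted threshold; Cd74, the invariant chain cut by cathepsin S, was not analysed here. Ciita, the transactivator of class II genes, measured 4.95, 5.18 and 5.37 in the KO-labelled arrays, against 4.73, 4.73 and 4.94 in the WT-labelled arrays. The groups did not overlap, but the lowest KO-labelled and the highest WT-labelled array lay next to each other. The log2 difference was 0.37 ± 0.17 (SE, adjusted p = 0.494 in limma). H2-DMb2, H2-Eb1 and H2-Aa had 0.37, 0.32 and 0.27, and H2-Eb1 had 0.08 without WT replicate 1. The B cell and macrophage marker sums given beside Ctss apply here too. The summed level of 4 dendritic cell markers, all below the median of all genes on average, was 63.4 to 68.1 in the KO-labelled arrays and 65.3 to 85.0 in the WT-labelled arrays.

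**Figure D4:**
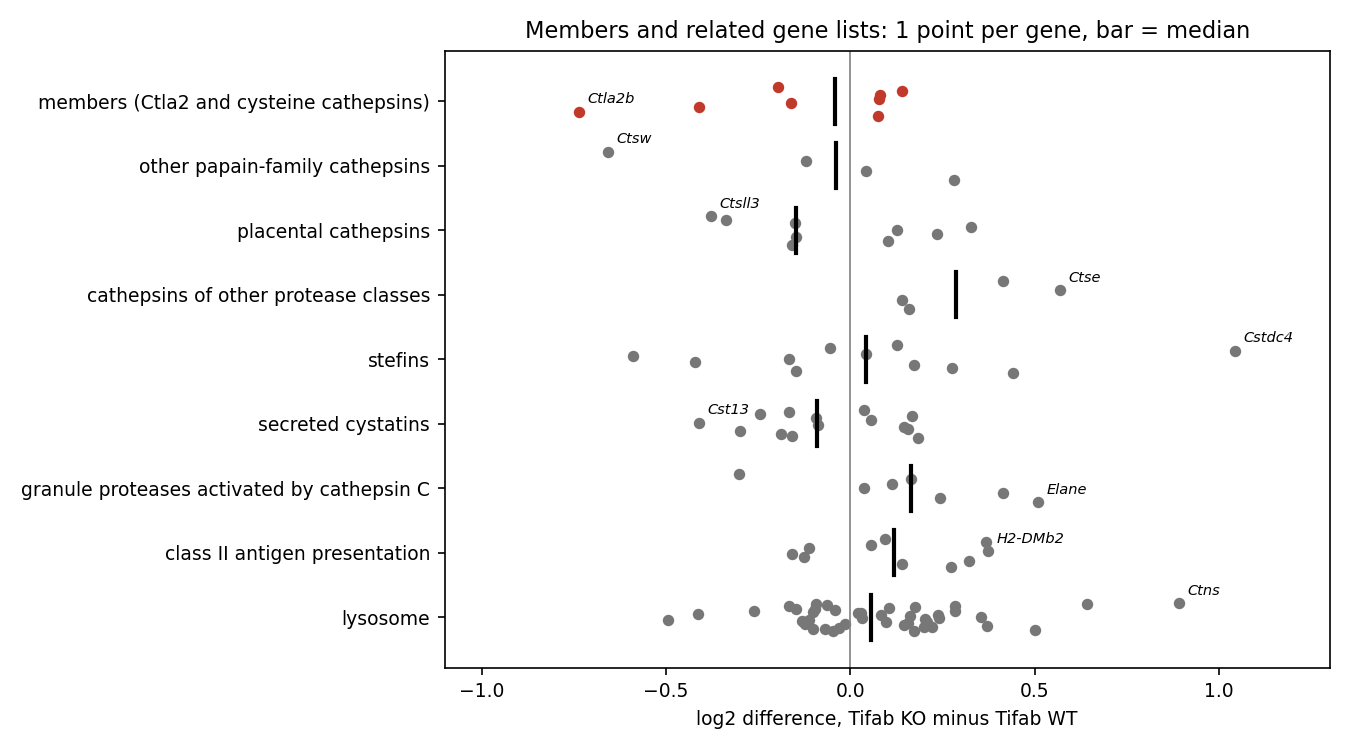
Log2 differences, KO-labelled minus WT-labelled arrays, of the 8 genes (red) and of each measured gene in 8 related lists (grey), with black bars for the medians and the gene of the largest size named. The medians run from -0.15 for placental cathepsins (0.03 after quantile normalization or cyclic loess) to 0.29 for cathepsins of other protease classes, and that of the 8 genes is -0.04.

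Genes that followed Ctla2a over the 6 arrays were sought among 10247 genes whose mean exceeded the all-gene median, without the 8 genes themselves, small RNAs and genes known only by a predicted-gene or clone symbol. Pearson's r was 0.99 for Zfp827, 0.98 for Oxct1, Nr3c2 and Abi1, and 0.97 for Tpm3; at the other end it was -0.98 for Zfp511 and Pigh and -0.99 for Ptpa. These are descriptions over 6 arrays in which Ctla2a spanned 0.26 among the KO-labelled and 0.22 among the WT-labelled arrays, picked as extremes of a long list, and they carry no p.

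Promoter windows of 300 bases were at hand for 6 of the 8 genes, all but Ctsb and Ctsh, and were searched on both strands for short motifs. The aligned windows of both Ctla2 genes hold TGACGT, the first part of the cAMP response element, as do 7.51% of all 32851 windows. It lies in the aligned stretches above. AGATAA, bound by factors of the GATA family, is in the Ctla2a and Ctsz windows and in 11.2% of all windows, and a difference in capitals takes it out of the Ctla2b stretch. Ctsl holds CACGTG, the E-box core bound by the lysosomal regulator TFEB, found in 7.15% of windows. The PU.1 motif GAGGAAGT is in the Ctsc and Ctss windows and in 3.20% of all. The whole cAMP response element TGACGTCA (1.79% of windows) is in none of the 6 genes' windows. The shorter form is contained in the whole element, and a match describes letters only.

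The 8 measured markers of LSK cells all had means above the median of all genes, and the one for Sca1, Ly6a, was not analysed here. Kit, the gene of the sorted receptor, measured 9.41 to 9.59 in the KO-labelled arrays and 9.50 to 9.69 in the WT-labelled arrays. The groups did not overlap for 2 of the 8 markers (25%), beside 16.1% of all genes: the transcription factor genes Meis1, 0.39 ± 0.13, and Hlf, -0.33 ± 0.13 (SE), with adjusted p of 0.384 and 0.456 in limma. Flt3, the receptor gene of multipotent progenitors, had -0.24 ± 0.13 (SE). The summed level of the 8 was 3220 to 3570 in the KO-labelled arrays and 3180 to 3370 in the WT-labelled arrays. Of the 7 mast cell, basophil and eosinophil markers, those of eosinophils split the KO-labelled arrays. Prg2 measured 6.44, 9.65 and 6.38 in the KO-labelled arrays, against 9.62, 8.87 and 9.23 in the WT-labelled arrays. Epx measured 4.43, 5.80 and 4.42 in the KO-labelled arrays, against 6.13, 5.48 and 5.71 in the WT-labelled arrays. The mast cell and basophil genes Cpa3, Mcpt8, Fcer1a, Ms4a2 and Tpsb2 did not stand highest in KO replicate 2 among the KO-labelled arrays. Of the 7, only Ms4a2, at -0.57 ± 0.22 (SE), had groups that did not overlap, and the part of these cells in the Ctla2 and cathepsin values was not tested.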

How the data were processed

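The authors deposited log2 probe set values for 41345 probe sets on 6 arrays, from 0.833 to 13.5, with array medians of 4.05 to 4.10. They came from Affymetrix Expression Console, per the submitters' processing notes; background correction, summary method, normalization and filters are not stated there. No detection call was used, and the number of arrays limits the precision. Gene names came from the platform annotation: 23521 had 1 symbol, 1814 several (left out) and 16010 were unlisted. The brightest of several probe sets stood for each of 1082 genes, which left 22180 genes; no 2 arrays were identical.

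Arrays were compared with limma 3.58.1 in R 4.3.3 (lmFit, eBayes with an intensity trend), two-sided, with Benjamini-Hochberg adjustment over all genes and a threshold of 0.05, tested on simulated data first. Differences are Tifab KO minus Tifab WT by label. p-values measure the spread between 3 samples per group. The genes and lists were chosen with earlier results of these data known, so the 8 genes carry no test. Of related lists, the text names all members of a list of 4 or fewer and otherwise the 4 with the smallest p. The genes nearest the Ctla2 pair, Macroh2a1, Kit, Cpa3, Fcer1a, Tpsb2, Iglv1, Nkg7, Cd3e, Hmox1, Adgre1, Mertk and Cd163 were named after their values were seen. So were Cd8a, Klrb1c, Il2rb, Gzma, Gzmb and H2-DMa. Marker sums add linear values. Alternatives were other moderation, array weights, other scalings, a filter on dim genes, other probe set rules, the replicate number as a block and each array left out. Promoter windows and gene order came from RefSeq tables of GRCm38.p6, and all 8 genes matched by Entrez identifier. No genome build is given for the deposited values; the coordinates printed are those of the RefSeq promoter windows.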

Additional observations from a re-analysis of the deposited data

How the results depend on the processing

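The adjusted threshold was passed by 0 genes as deposited and under every alternative with all 6 arrays, and by 0 to 1 gene with 1 array left out: Prg2 without KO replicate 2 and Iglv1 without WT replicate 3. No gene of the related lists passed in any of the 16 alternatives. Genes past an unadjusted p under 0.05 and 1.5-fold numbered 605, 356 without genes under the 40th percentile of signal (fewer genes tested) and 682 to 1095 with 1 array left out, highest without WT replicate 3. Of the 605, 52.6% were lower, against 41.6% after quantile normalization and 37.6% without dim genes. Groups did not overlap for 3577 genes, for 1981 without dim genes, and for 5474 to 6673 with 1 array left out, where fewer arrays make separation easier. The median log2 difference of the 8 genes was -0.04, and -0.19 (without WT replicate 1) to 0.028 (without WT replicate 3) with 1 array left out. With the replicate number as a block 647 genes passed the looser threshold and 0 the adjusted one. Samples of the same number deviated together by r = 0.02, -0.03 and -0.09, and samples of different number by -0.07 to 0.11. With 3 arrays per group these values cannot settle whether samples of the same number shared a batch. The median of all genes moved by at most 0.04 under any setting. Differences of Ctla2a, Ctsc, Ctsh and Ctss, none larger than 0.14, changed sign under 1 to 2 of 13 alternatives each. With 3 arrays per group, small differences could not be resolved.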
